A study of Oryza sativa with 4 samples.

Results

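The genes described here are 4 rice genes of families that act in auxin inactivation, transport and response. They were chosen by their row identifiers, and all 4 were found among the 287 genes of the authors' deposited table. They are *IAA27* (OS11G0221000, chromosome 11), *GH3.3* (OS01G0221100, chromosome 1), *DAO* (OS04G0475600, chromosome 4) and the gene that the table names *PIN4* (OS08G0529000, chromosome 8) and the study calls *OsPIN5b*. Young panicles shorter than 1 mm were taken from 80 plants of the OX*OsAFB6* mutant and from 80 control plants, and their RNA was sequenced as 2 libraries a group. The mutant is 1 transgenic event in the Zhonghua11 background, in which an inserted vector built to overexpress *CCT05* lies upstream of *OsAFB6*, an auxin receptor gene. GEO's labels give its genotype as *OsAFB6* overexpression caused by the transgenic insertion. The study reports no detectable overexpression of *CCT05* in this event. The control plants also have the Zhonghua11 background and carry no transgene. GEO's labels describe them as negative plants from that event, whereas the study's methods describe plants regenerated from calli without foreign DNA. The panicles of each group came from 1 collection and were divided into 2 pools, so the difference between libraries leaves out variation between separate growths. The study reports later heading in the mutant, and for these panicles it gives the season but not the plant age. A difference in plant age or collection date between the groups cannot be told apart from genotype.

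Auxin, chiefly indole-3-acetic acid (IAA), is read in the nucleus by F-box receptors of the TIR1/AFB family. Bound to auxin, a receptor marks Aux/IAA repressor proteins for degradation, which frees the auxin response factors they hold back. Cells also lower active IAA by joining it to amino acids, a reaction of GH3 enzymes, or by oxidising it, the reaction of DAO. PIN proteins carry auxin across membranes, and in panicles the directed flow of auxin positions branches and spikelets.

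The authors kept in the deposited table only genes that they called different between the mutant and the control plants, and 229 of the 287 were lower in the mutant. Being in the table is therefore a choice made on the same contrast, and no model was fitted across genes to test their difference. The table gives 1 mean per group. Its columns are headed RPKM, but each mean is a sum of whole reads of 2 libraries, each read adding the same amount for every gene, and the reads of each library could be read back in this way for 283 genes, the 4 auxin genes among them. Values are given below as normalized read counts, that is reads divided by the size factor of the library. The size factors were 1.01 and 1.14 for the OX*OsAFB6* libraries A and B and 0.887 and 0.977 for the control libraries A and B. The letters order libraries within a group by size factor, since replicate numbers cannot be read from the means. The whole depth of the libraries is unknown. The panicle genes used as markers, *LAX*, *MADS34* and *FL*, were taken from the listed genes with earlier results of these data known. They were detected in every library, and all 3 were higher in the mutant, as were 58 of all 287 listed genes. Their summed normalized read count was 7169 and 7942 for the mutant against 2298 and 3607 for the controls. The 8 listed genes described with photosystem, chlorophyll or cytochrome b6 were all lower in the mutant, with a summed normalized read count of 2261 and 2711 against 7612 and 6758, and none was at 0 in a library. These lists moved with the genotype beside the auxin genes, and their part in the values below was not tested. Libraries of whole panicles cannot tell fewer cells that express a gene from less RNA in each cell.

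All 4 auxin genes were lower in OX*OsAFB6* panicles, between 3.0-fold for *DAO* and 5.75-fold for *PIN4*. In each of them the higher mutant library was below the lower control library. The same held for 79.9% of the 283 listed genes whose reads could be read back for all 4 libraries, counts of 0 included, and the remaining genes lay above without overlap, as the authors' choice of genes brings about. The mean was at least 4-fold lower in 3 of the 4 genes and in 31.7% of all listed genes. The median log2 fold change of the 4 genes was -2.15, against -1.84 for all 229 lower genes and -1.71 for the whole list, where 8 genes at 0 in the mutant were taken as the lowest.

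**Figure D1:**
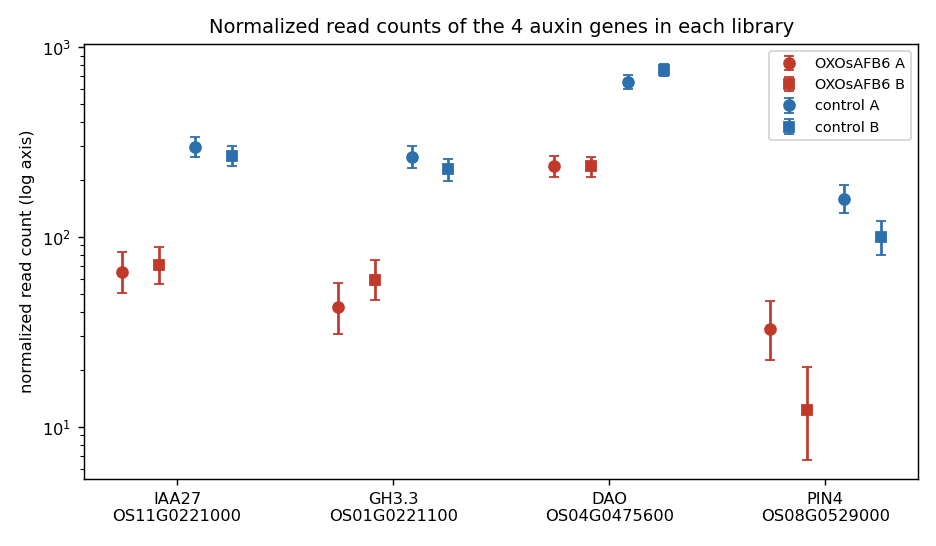
Normalized read count (log axis) of *IAA27*, *GH3.3*, *DAO* and *PIN4* in the 2 OX*OsAFB6* libraries (red) and the 2 control libraries (blue). Circles are libraries A and squares libraries B, and bars are exact 95% Poisson intervals, which cover counting error only. Every red point lies below every blue point of its gene, and the red points of *PIN4*, at 32.7 and 12.3, are the farthest apart.

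*IAA27* encodes an Aux/IAA protein, of the repressor family that auxin receptors mark for degradation. Whether OsAFB6 acts on this member was not tested. Mutant libraries A and B held 66 and 81 reads, which gave normalized read counts of 65.4 and 71.0. Control libraries A and B held 263 and 260 reads, or 296 and 266 after normalization. The libraries of each group lay close together, 1.09-fold apart in the mutant and 1.11-fold apart in the control plants, and the groups did not overlap. The mean was 24.2% of that in the control plants, or 4.13-fold lower (log2 fold change -2.05). With the reads of both libraries of a group pooled, the exact 95% interval of the fold was 3.41 to 4.97, which covers counting error only. Leaving out any 1 library gave decreases from 3.91-fold to 4.35-fold. Among the 229 lower genes, *IAA27* ranked 89 by the size of the decrease and 146 by the mean in the control plants.

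*GH3.3* encodes a probable IAA-amido synthetase, an enzyme of the family that joins auxin to amino acids. The study also lists it under the name *OsJAR2* and counts it as a light and jasmonate signaling gene too. Which hormone its enzyme acts on was not tested here. Mutant library A had 43 reads and library B had 68, normalized to 42.6 and 59.6. Control library A had 234 reads and library B had 221, normalized to 264 and 226. Mutant library A was the lowest of the 4, and the higher mutant library was still 3.8-fold below the lower control library. The mean was 4.8-fold lower in the mutant (log2 fold change -2.26, pooled 95% counting interval of the fold 3.84 to 5.88). Leaving out mutant library B gave 5.75-fold and leaving out mutant library A gave 4.11-fold, and leaving out a control library gave values between these. The 1.40-fold difference between the mutant libraries was larger than that of 65.6% of the 215 lower genes with reads in both.

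The identifier next to *GH3.3* in the list, OS01G0221000 on chromosome 1, has no name or description, and it was lower in the mutant as well. Its reads numbered 17 and 40 for the mutant (libraries A and B) versus 120 and 148 for the controls. The normalized read counts were 16.8 and 35.0 against 135 and 152. The ratio of *GH3.3* reads to its reads was 2.53 and 1.70 for the mutant versus 1.95 and 1.49 for the controls, so this ratio overlapped between the groups. Added together, the means of both genes came to 77.0 for the mutant versus 388 for the controls, 5.04-fold apart. How the authors' counting treated reads of neighbouring or overlapping genes is not given in the sources used here, so the split of reads between these genes is uncertain.

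*DAO* encodes the 2-oxoglutarate-dependent dioxygenase that oxidises IAA to an inactive product. It was the most abundantly counted of the 4 genes in every library, which is not a comparison of transcript levels because reads were not divided by gene length. The mutant had 238 and 268 reads (libraries A and B), normalized to 236 and 235. The controls had 579 and 741 reads, normalized to 653 and 759. The mutant libraries were 1.004-fold apart, and no other of the 215 lower genes with reads in both mutant libraries had a smaller ratio between them. This difference is far below counting error, since the 95% Poisson intervals were 207 to 268 in library A and 208 to 265 in library B. The mean was 3.0-fold lower in the mutant (log2 fold change -1.58), with a pooled 95% counting interval of 2.72 to 3.34. The decrease depended little on the library, between 2.77-fold without control library B and 3.22-fold without control library A. *DAO* ranked 167 of the 229 lower genes by the size of the decrease, the lowest place of the 4 auxin genes, and 91 by the mean in the control plants, the highest place.

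*PIN4* is described in the table as a probable auxin efflux carrier component. Its name needs care, since RefSeq's gene table (assembly ASM3414082v1) gives the synonyms OsPIN4, OsPIN5b and OsPIN5c to a gene on chromosome 8, where the row identifier also lies, and gives OsPIN5b and OsPIN5c to a gene on chromosome 9 too. The values here belong to the chromosome 8 identifier. *PIN4* was counted at 33 and 14 reads for the mutant (libraries A and B) versus 141 and 97 reads for the controls. The normalized read counts were 32.7 and 12.3 against 159 and 99.3. It was thus the gene with the fewest reads of the 4, and the only 1 whose libraries differed by more than their 95% Poisson intervals in both groups. In the mutant these intervals ran from 22.5 to 45.9 in library A and from 6.71 to 20.6 in library B. In the control plants they ran from 134 to 187 in library A and from 80.5 to 121 in library B. Intervals that lay apart were found for 77 of the 226 lower genes with resolved reads in the mutant and for 117 of them in the control plants.

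The mean of *PIN4* was 5.75-fold lower in OX*OsAFB6* (log2 fold change -2.52), with a pooled 95% counting interval of the fold of 4.26 to 8.17. This interval does not hold the difference between the libraries. Without mutant library A the decrease was 10.5-fold, and without mutant library B it was 3.95-fold. The closest libraries of the groups were 3.04-fold apart and the farthest 13.0-fold. Every mutant library was thus below every control library for *PIN4*, while the size of its decrease varied most among the 4 genes when a library was left out.

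**Figure D2:**
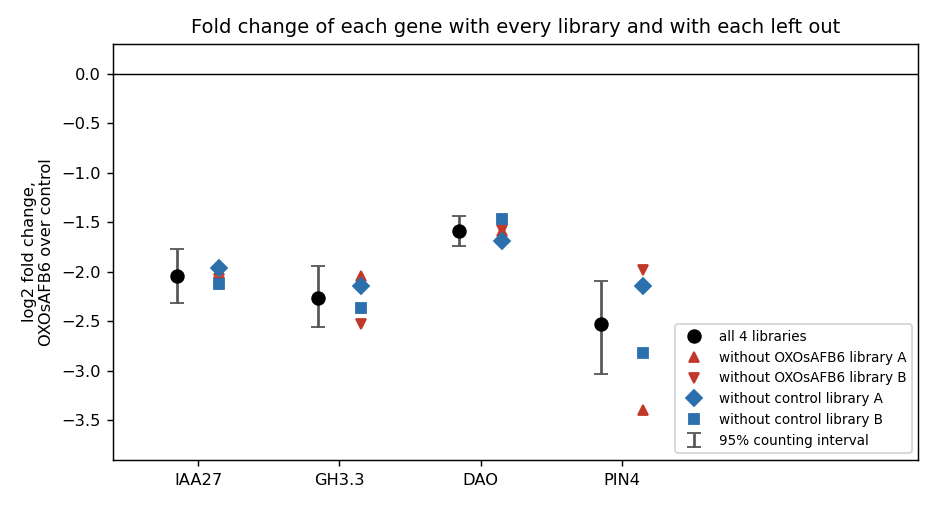
Log2 fold change, OX*OsAFB6* over control, of the 4 auxin genes. Black points use all 4 libraries, bars are the 95% counting intervals of the pooled reads, and coloured symbols show the value with 1 library left out (red, an OX*OsAFB6* library, and blue, a control library). All values lie below 0, from -1.47 to -1.69 for *DAO* with a library left out and from -1.98 to -3.40 for *PIN4*.

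With 2 libraries against 2, an exact permutation test (two-sided) gave p = 0.333 for each of the 4 genes, and this is the smallest value that the design can give, so it cannot pass 0.05. Ordered by the size of the decrease, *PIN4* came before *GH3.3*, *IAA27* and *DAO*. The pooled counting intervals of *PIN4*, *GH3.3* and *IAA27* all overlapped each other, so these 3 genes were not told apart. The order among them also turned with the libraries used. Without mutant library B the decrease of *PIN4*, at 3.95-fold, was smaller than that of *IAA27* at 4.30-fold and of *GH3.3* at 5.75-fold, and without control library A it was 4.42-fold for *PIN4* and 4.43-fold for *GH3.3*. The interval of *DAO* ended at 3.34 and that of *IAA27* began at 3.41.

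A ratio of reads of 2 genes within a library does not depend on the size factor, so it compares the genes without the scaling. The ratio of *IAA27* to *DAO* reads was 0.277 and 0.302 for mutant libraries A and B versus 0.454 and 0.351 for control libraries A and B. The ratio of *GH3.3* to *DAO* reads was 0.181 and 0.254 for the mutant versus 0.404 and 0.298 for the controls. Both ratios were thus lower in the mutant, without overlap between the groups. The ratio of *IAA27* to *GH3.3* reads was 1.53 and 1.19 against 1.12 and 1.18, so that the nearest libraries were almost equal. The 3 ratios with *PIN4* overlapped between the groups, for example *DAO* to *PIN4* at 7.21 and 19.1 for the mutant versus 4.11 and 7.64 for the controls. In all, 3 of the 6 ratios did not overlap, against 53.6% of the 23005 ratios among the 215 lower genes with reads in every library, and this count is near that background.

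The reads of the 4 genes together numbered 380 and 431 for mutant libraries A and B versus 1217 and 1319 for control libraries A and B. The normalized sums, 376 and 378 versus 1372 and 1350, were 3.61-fold apart in their means. *DAO* took 62.6% and 62.2% of the 4 genes' reads in the mutant (95% Wilson intervals 57.7 to 67.3 and 57.5 to 66.6). It took 47.6% and 56.2% in the control plants (44.8 to 50.4 and 53.5 to 58.8). The share of *DAO* was higher in both mutant libraries than in both control libraries, but the intervals of both mutant libraries overlapped that of control library B. *GH3.3* took 11.3% and 15.8% for the mutant versus 19.2% and 16.8% for the controls. *IAA27* took 17.4% and 18.8% against 21.6% and 19.7%. *PIN4* took 8.68% and 3.25% against 11.6% and 7.35%, so its share overlapped between the groups.

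**Figure D3:**
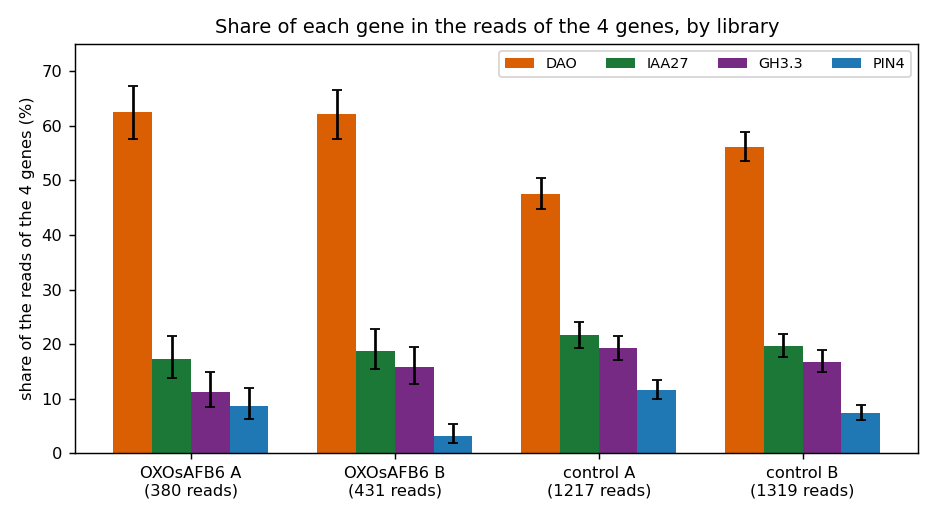
Share of each gene in the summed reads of *DAO*, *IAA27*, *GH3.3* and *PIN4*, in percent, for each library, with 95% Wilson intervals as bars (counting error only). The *DAO* share, 62.6% and 62.2% for the mutant, lies above the 47.6% and 56.2% of the controls.

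Each auxin gene was also placed among lower genes whose control mean was within 2-fold of its own, since the median log2 fold change of such genes differed with the level, at -2.22 around *PIN4* and -1.74 around *DAO*. For *IAA27* there were 78 such genes, and 66.7% of them had a smaller decrease. For *GH3.3* it was 67.9% of 78 genes, for *DAO* 37.9% of 66 genes and for *PIN4* 42 of 60 genes. Over all 229 lower genes, the share with a smaller decrease was 61.1% for *IAA27*, 69.0% for *GH3.3*, 27.1% for *DAO* and 79.0% for *PIN4*. None of the 4 genes stood at either end of the list in the size of its decrease. In order of fold change, *PIN4* came just after OS10G0536400 (log2 fold change -2.56) and *GH3.3* just after *ZIP2*, a zinc transporter (-2.29). *IAA27* came between OS10G0506900 (-2.07) and OS11G0445300, described as a protein kinase (-2.04). *DAO* came just before OS02G0530100, a copper chaperone homolog (-1.58).

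**Figure D4:**
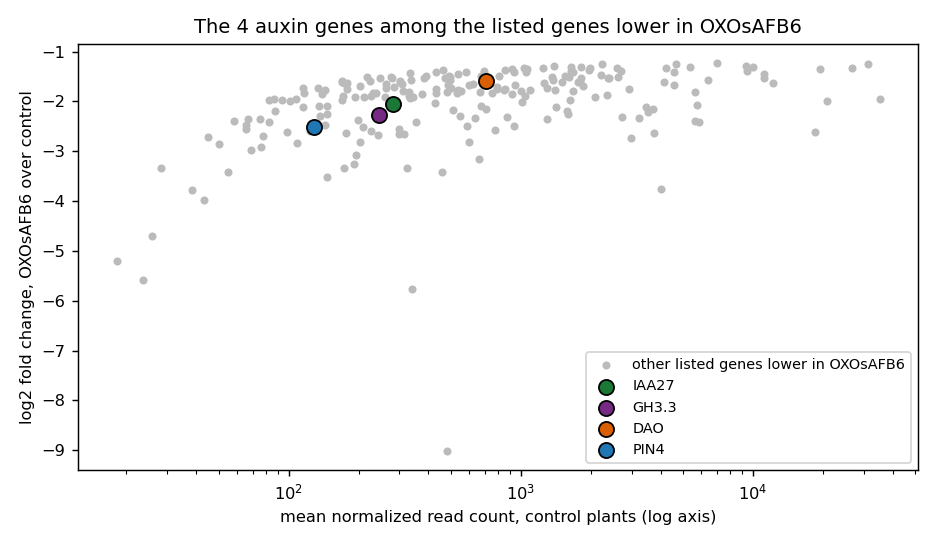
Log2 fold change, OX*OsAFB6* over control, against the mean normalized read count of the control plants (log axis) for listed genes that were lower in the mutant and had a mean above 0 there. The 4 auxin genes (coloured) lie between -1.58 for *DAO* and -2.52 for *PIN4*, inside the range of the other genes of like control mean (grey).

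The difference between the libraries of a group was also set against the other lower genes. In the mutant, the log2 ratio of the higher to the lower library was 1.41 for *PIN4*, 0.48 for *GH3.3*, 0.12 for *IAA27* and 0.0054 for *DAO*, against a median of 0.33. In the control plants it was 0.68 for *PIN4* and 0.22, 0.16 and 0.22 for *GH3.3*, *IAA27* and *DAO*, against a median of 0.30. *PIN4* ranked 9 of 215 genes by this difference in the mutant and 15 of 226 in the control plants. The other 3 genes were below the median in the control plants, and in the mutant only *GH3.3* of these was above it. Counting error adds more to this ratio in genes with fewer reads, and the ranks were not adjusted for it.

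**Figure D5:**
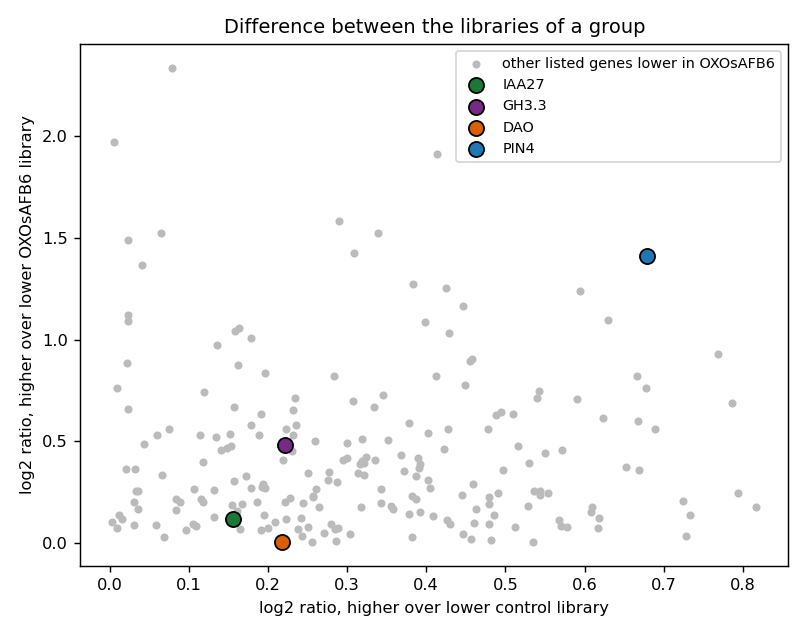
Log2 ratio of the higher to the lower library of OX*OsAFB6* (vertical axis) against the same ratio of the control plants (horizontal axis), for listed genes lower in the mutant with reads in every library. *PIN4* lies at 0.68 and 1.41, far from the other 3 auxin genes (coloured), which lie at or below 0.22 and 0.48.

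The table held 6 genes described with auxin or IAA or named *DAO*, which are the 4 genes and a pair of others. Of the 6 genes, 5 were lower and 1 was higher in the mutant, with a median log2 fold change of -1.92, and over the whole list 79.8% of the genes were lower, so this count is near that share. The other lower gene was OS06G0226700 on chromosome 6, described as a putative auxin-induced basic helix-loop-helix transcription factor. Normalized read counts were 186 and 196 for the mutant versus 712 and 620 for the controls, a log2 fold change of -1.80. The gene that was higher in OX*OsAFB6* was OS02G0178100, with means of 49357 for the mutant and 15747 for the controls, a 3.13-fold increase. Its description names an auxin signaling F-box protein and the locus Os03g0187500 on chromosome 3, but its identifier lies on chromosome 2, so the gene that gave these reads cannot be told from the table. The table held no row of OS03G0187500. By the study's locus numbers, *OsAFB6* lies on chromosome 3 and *CCT05*, for which the inserted vector was built, on chromosome 2. Whether either gave these reads was not tested. The reads of OS02G0178100 could be read back only for the control libraries, with normalized read counts of 20376 and 11118. With the study's *HOX1* (OS10G0561800), a homeobox-leucine zipper gene that it counts with auxin transport, and OS01G0221000 added, 7 of 8 genes were lower, against the same 79.8% of the list. *HOX1* had normalized read counts of 103 and 124 for the mutant versus 314 and 360 for the controls.

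Apart from the auxin signaling F-box protein named for OS02G0178100, the other steps of auxin action searched for were not found in the table by description. By description it held 1 Aux/IAA protein, 1 GH3 amido synthetase and 1 auxin efflux carrier, which are *IAA27*, *GH3.3* and *PIN4*, and 0 auxin response factors, 0 SAUR genes, 0 influx carriers, 0 enzymes of the YUCCA or tryptophan aminotransferase kind and 0 jasmonate genes. Only 240 of the 287 listed genes had a description, and a gene without one could not be found in this way. The description of *GH3.3*, which the study also names *OsJAR2*, does not mention jasmonate. In RefSeq's gene table, synonyms give 28 genes an IAA number, 9 genes a GH3 number and 9 genes a PIN number, although neither *IAA27* nor *GH3.3* was among these. The other members of these families were not analysed here, and the table does not tell a gene that did not pass the authors' threshold from 1 with too few reads. A second 2-oxoglutarate oxygenase beside *DAO*, OS10G0536400, had normalized read counts of 48.5 and 52.6 for the mutant versus 355 and 240 for the controls, and its description does not mention auxin. The basic helix-loop-helix genes numbered 2, OS06G0226700 and OS09G0474100, and the latter had a log2 fold change of -1.84. With OS02G0178100, 4 genes described as F-box proteins were listed, of which 3 were lower in the mutant, against 79.8% of the whole list, with log2 fold changes of -1.39 for OS10G0522400, -1.48 for OS03G0321300 and -1.75 for OS03G0116700.

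For each auxin gene, the listed genes with the most similar pattern were those with the smallest root mean square distance in log2 normalized read count, centred per gene, over the 4 libraries. *IAA27* was nearest to OS01G0750500, an undescribed protein, at 0.071, and to OS01G0581300, a putative lycopene epsilon-cyclase, at 0.076. *GH3.3* was nearest to OS07G0119300, a putative cytoskeletal protein, at 0.044, and to OS07G0606600, the HAP3 subunit of a HAP complex, at 0.065. *DAO* was nearest to OS05G0194550 at 0.058 and to OS03G0351300, a glycosyl hydrolase of family 14, at 0.071. *PIN4* was nearest to *WNK7*, a probable serine/threonine-protein kinase, at 0.16, and to OS06G0713000, a zinc finger protein, at 0.22. *WNK7* also had fewer reads in mutant library B than in mutant library A, 16 against 29, as *PIN4* had. Among the 4 auxin genes themselves, *IAA27* and *GH3.3* were the closest at 0.17, and *DAO* and *PIN4* were the farthest apart at 0.76. Each auxin gene was nearer to listed genes outside the auxin descriptions than to another of the 4, over 4 libraries that were also used to choose the list. The nearest genes were sought among all listed genes, which far outnumber the 4, so this outcome was likely for any gene. It therefore does not tell whether the 4 genes share a pattern.

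The study also measured expression by real-time PCR and IAA and cytokinin concentrations on panicles of later seasons, and these measurements were not analysed here.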

How the data were processed

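Young panicle RNA of OX*OsAFB6* and control plants was sequenced by a company. The submitters' processing notes name Bowtie 0.12.2 and the builds IRGSP-1.0 and mm8, with no role. The counting tool, the annotation and the test are not given in the sources used here. The authors deposited a signal, in which the reads of a gene were scaled by size factors and averaged over the 2 libraries of a group. Their columns are headed RPKM. The deposited log2 fold changes, p-values and adjusted p-values are the authors' own comparison and were not used.

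Library reads were read back from the means by fitting what 1 read adds in each library. A mean was resolved where a single pair of whole numbers met it within rounding (10 significant digits) and 4 standard errors, which held for 286 mutant and 284 control means, while 0 means had no pair. Scripts ran in Python 3.11.15 with scipy 1.17.1, numpy 2.4.6 and pandas 2.3.3. Tested on simulated data, 286 and 285 of 287 means resolved, all to the true reads. The simulated reads were drawn around the recovered reads with the fitted size factors. The smallest mean of each group was set to 1 read of 1 library, where the recovery starts. The simulation therefore could not test that starting assumption. Of the recovered reads, 47.2% were odd numbers. Fold changes are ratios of the group means. Intervals are exact conditional intervals of pooled reads, exact Poisson intervals per library and Wilson intervals of shares, at 95%, and cover counting error only. A pseudocount of 1 was used only for the distances between patterns.

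The table holds only selected genes, so no model was fitted across genes. The 4 genes and the lists were chosen with earlier results of these data known. Named genes were the 4 genes, listed genes described with auxin, *HOX1*, OS01G0221000, genes described as 2-oxoglutarate oxygenase, F-box, jasmonate or basic helix-loop-helix, the 2 genes nearest to each of the 4, and their neighbours in order of fold change. Alternatives were pseudocounts of 1 and 10, each library left out, no size factors, geometric means, a 10 times wider rounding tolerance, a minimum mean of 100 and a wider auxin list.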

Additional observations from a re-analysis of the deposited data

How the results depend on the processing

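Of 49 alternative values, 43 moved by less than the spread between libraries, the counting interval of the share or 1.5 times the count, and 0 reversed. For values with a library left out, that spread comes from the same library differences, so a larger move was hardly possible. All 40 log2 fold changes of the 4 genes, main values included, were below 0. With a library left out, this sign and the auxin count followed from groups that did not overlap. These counts are therefore no test of robustness. The 6 alternative values that moved more were as follows. For *IAA27*, a pseudocount of 10 gave a log2 fold change of -1.90. Leaving out the size factors gave -1.83 for *IAA27* and -1.38 for *DAO*, the mutant size factors being the larger ones. With a minimum mean of 100, which left 177 lower genes, the share of lower genes with a smaller decrease was 73.4% for *IAA27*, 80.8% for *GH3.3* and 35.0% for *DAO*, and *PIN4* did not pass this minimum. Leaving out a library gave log2 fold changes from -2.12 to -1.97 for *IAA27*, -2.52 to -2.04 for *GH3.3*, -1.69 to -1.47 for *DAO* and -3.40 to -1.98 for *PIN4*, where the decrease was 10.5-fold without mutant library A. The cause of these moves was not tested. No paired analysis was possible because the deposited columns are group means that carry no replicate number. The reads of single genes, 14 at the fewest for *PIN4*, limit the precision.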

Other observations

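Few listed genes were described with another hormone outside the auxin, cytokinin and strigolactone genes. OS06G0592500, described as a putative ethylene-responsive transcriptional coactivator, had normalized read counts of 173 and 164 in the OX*OsAFB6* libraries A and B and 37.2 and 72.7 in the control libraries A and B. OS07G0617000, described as EREB-like, had 35.6 and 41.2 against 247 and 149. OS01G0867300, described as an ABA responsive element binding factor, had 373 and 579 against 1595 and 1120. These 3 genes were chosen by their descriptions after their values were seen.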
